A study of Homo sapiens with 18 samples.

Results

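The genes described here are 9 immediate early and AP-1 genes: FOS, FOSB, FOSL1, FOSL2, JUN, JUNB, JUND, EGR1 and IER2. They were chosen by gene symbol from the 60675 genes of the tables, and all 9 were found and passed the filter on low values (at least 1 TPM in at least 3 libraries), which 18269 genes passed. TPM is a gene's length-corrected share of all transcripts in a library. RNA was sequenced from U87, an established human glioblastoma cell line with no genetic modification. The cells received ethanol, the vehicle, or 100 nM of 1 of 5 rexinoids for 24 h, and each of the 6 groups had 3 libraries, 18 in all. Bexarotene is a rexinoid in clinical use, a ligand of the retinoid X receptors, and served as a control beside ethanol. The other 4 compounds have code names only (A34, A41, A80, A98). All groups share the line, the serum-containing medium and the single time point, so nothing is known here of the first hours, when these genes are known to respond most.

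AP-1 is a transcription factor made of pairs of basic leucine zipper proteins. A JUN protein (JUN, JUNB or JUND) pairs with another JUN protein or with a FOS protein (FOS, FOSB, FOSL1 or FOSL2), and the pair binds DNA. FOS, FOSB, JUN, JUNB, EGR1 and IER2 are immediate early genes: growth factors, serum and stress switch them on through MAP kinases and serum response factor without new protein synthesis, and their RNAs decay fast. FOSL1 and FOSL2 are slower and more lasting, JUND is expressed more evenly, and FOSL1 is known for high levels in mesenchymal glioblastoma. Liganded retinoid receptors are known to interfere with AP-1 in other systems, which is a reason to look at the AP-1 genes after a rexinoid.

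In the results below FOS, FOSB and EGR1 varied together and JUN differed between replicate numbers. JUND was the only member called different from ethanol, narrowly and with A41 only. The promoters of these 5 members are shown for that reason. Each is the 250 bases before the gene's RefSeq start on GRCh38.p14, 5′ to 3′ on the gene's strand. Capitals mark matches, on either strand, to TGACG (the core of the site bound by CREB and ATF proteins), to the cyclic AMP response element TGACGTCA, which contains that core, to the CArG box of serum response factor, and to TATAAA.
FOS, chr14:75278578-75278827, plus strand: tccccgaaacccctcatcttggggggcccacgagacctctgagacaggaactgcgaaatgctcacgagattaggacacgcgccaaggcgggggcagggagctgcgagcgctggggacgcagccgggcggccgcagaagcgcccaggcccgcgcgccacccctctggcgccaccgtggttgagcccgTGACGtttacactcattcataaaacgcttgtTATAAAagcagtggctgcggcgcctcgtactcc
FOSB, chr19:45467746-45467995, plus strand: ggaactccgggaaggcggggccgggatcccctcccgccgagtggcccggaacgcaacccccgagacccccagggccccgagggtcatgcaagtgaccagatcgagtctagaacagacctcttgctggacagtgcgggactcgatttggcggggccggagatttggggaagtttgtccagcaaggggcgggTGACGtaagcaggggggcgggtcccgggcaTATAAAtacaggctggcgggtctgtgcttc
EGR1, chr5:138465229-138465478, plus strand: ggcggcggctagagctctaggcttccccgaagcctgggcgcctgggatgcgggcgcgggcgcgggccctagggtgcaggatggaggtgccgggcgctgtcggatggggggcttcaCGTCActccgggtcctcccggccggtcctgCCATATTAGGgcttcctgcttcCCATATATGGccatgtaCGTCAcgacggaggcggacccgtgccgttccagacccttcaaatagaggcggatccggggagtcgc
JUN, chr1:58784048-58784297, minus strand: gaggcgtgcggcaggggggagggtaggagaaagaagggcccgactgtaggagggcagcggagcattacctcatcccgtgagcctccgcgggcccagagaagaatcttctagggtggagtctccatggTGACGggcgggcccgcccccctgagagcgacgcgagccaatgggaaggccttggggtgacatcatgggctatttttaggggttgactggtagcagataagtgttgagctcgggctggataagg
JUND, chr19:18281623-18281872, minus strand: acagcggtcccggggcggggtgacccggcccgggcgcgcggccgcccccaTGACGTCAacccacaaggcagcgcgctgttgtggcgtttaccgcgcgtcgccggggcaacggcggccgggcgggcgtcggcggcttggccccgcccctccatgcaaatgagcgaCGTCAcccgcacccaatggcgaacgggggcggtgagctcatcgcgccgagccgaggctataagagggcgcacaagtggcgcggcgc
Promoters were found for 8 of the 9 members, FOSL1 being the exception. The core TGACG was in 8 of these 8 windows and in 21.7% of 27305 RefSeq promoters of the same length. The full cyclic AMP response element was in JUND alone of the 8, 200 to 193 bases before the start, and in 1.77% of all promoters. CArG boxes were in EGR1 alone, which held 2, and in 1.14% of all. TATAAA was in FOS, FOSB and JUNB, about 30 bases before the start, and in 11.1% of all. The exact letters of the AP-1 site TGANTCA (6.6% of all promoters) and of the nuclear receptor half-site AGGTCA (12.1%) matched in 0 of the 8. Variants of these letters were not searched, so the 0 does not show that such sites are absent. All of these are matches of letters in short windows, not measured binding, and a link to the results below was not tested.

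Depth, taken from the deposited coverage, ranged from 1.307 to 3.889 gigabases per library with a median of 2.078. Ribosomal RNA took 56.1% of TPM in A41 replicate 2, 44.9% in bexarotene replicate 1 and 35.5% in ethanol replicate 2, while 15 libraries had 0.352% to 4.36%. For this reason the text gives scaled TPM, the TPM divided by a median-of-ratios factor for the library. Among markers of cell types, VIM was at 3413 to 4469 scaled TPM and the leukocyte gene PTPRC at 0 to 0.174. The labels call the cells glial. Of 5 astroglial markers, which summed to 77.5 to 102 scaled TPM, GJA1 (57.1 to 79.3) and SLC1A3 (17.5 to 26.1) were expressed, while the filament gene GFAP (0.21 to 1.61), S100B (0 to 0.175) and AQP4 (0.0183 to 0.135) were near 0. The rexinoid target genes CYP26B1, DHRS3, ABCA1 and SCD rose with each of the 5 rexinoids. These genes were chosen with earlier results of these data known, so their rise is a description. The labels do not tie the 3 libraries of a group to separate cultures, and the p-values therefore cover only their own spread, which may be technical. In bulk RNA, fewer cells that express a gene and less RNA per cell cannot be told apart.

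FOSL1 and JUN were by far the most abundant members. With ethanol, FOSL1 was at 298, 304 and 286 scaled TPM, and JUN at 184, 174 and 159. FOSL2 followed at 43.8 ± 1.8 (SD, n = 3), and its 3 libraries lay just above those of IER2, at 34.5 ± 6.2. IER2, FOS (34.4 ± 5.8) and JUNB (31.5 ± 1.9) overlapped in their ranges and cannot be ordered. JUND, at 27.1 ± 1.6, lay below JUNB and above EGR1, at 21.5 ± 2.7. EGR1 and FOSB, at 19.9 ± 4.6, overlapped. FOSL1 stayed above JUN in every library of a group except with A80, where JUN reached 253 in replicate 1 and FOSL1 was at 247 in the same library. IER2, FOS, JUNB and JUND changed places between groups, mostly with overlapping libraries.

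**Figure D1:**
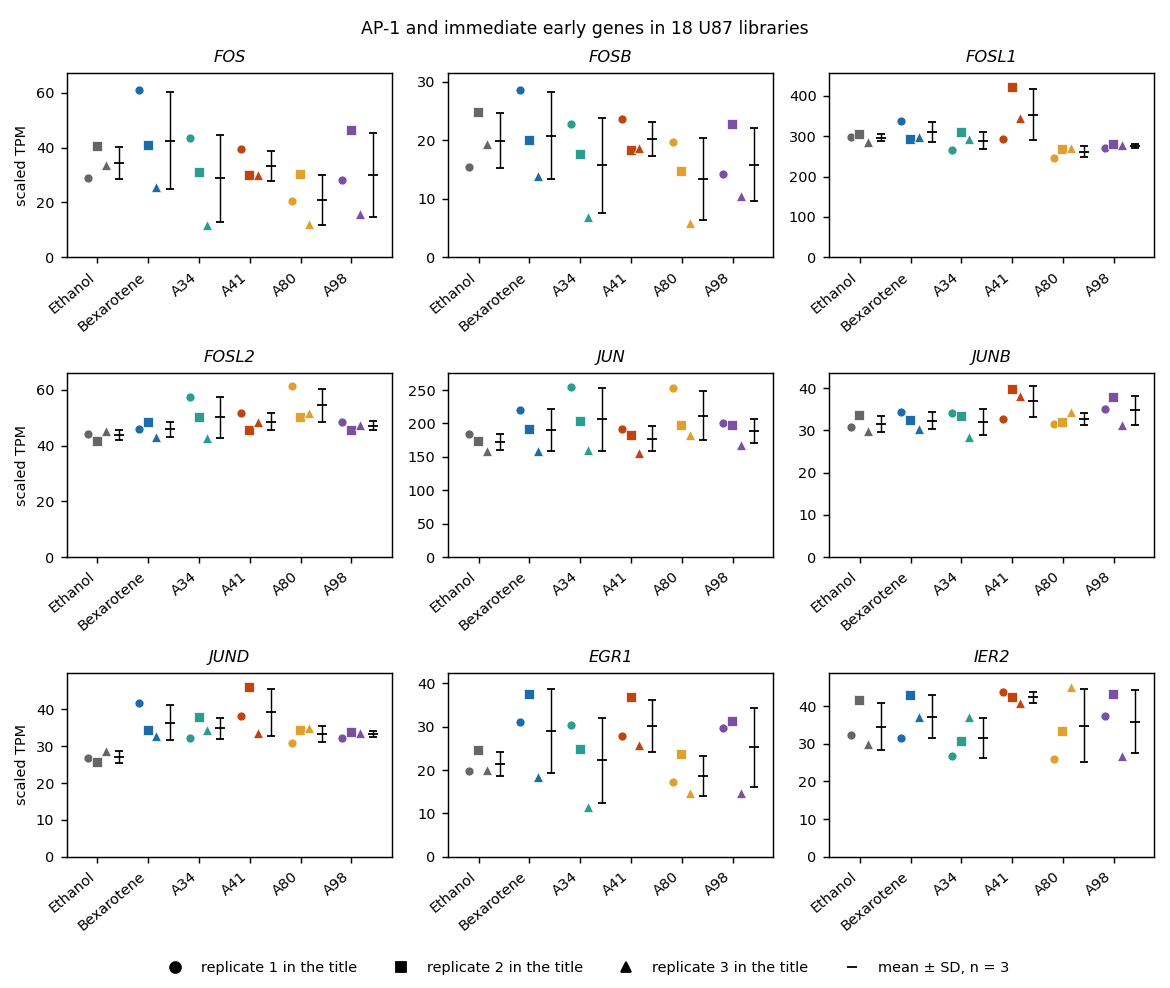
Scaled TPM (vertical axes, from 0) of the 9 members in each of the 18 libraries, by treatment group (horizontal axis); symbols give the replicate number of the title, and bars the mean ± SD of 3 libraries. JUND lay between 25.6 and 28.8 with ethanol and between 30.9 and 46.1 in the 15 rexinoid libraries, while FOS, FOSB and EGR1 spread widely within most groups.

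Within each AP-1 family 1 gene held about the same large part in all libraries. FOSL1 made up 75.3% ± 4.0 (SD, n = 18 libraries) of the summed scaled TPM of the 4 FOS-family genes, from 68.3% to 82.6%. FOSL2 made up 12.4% ± 2.1, FOS 7.91% ± 2.7 and FOSB 4.41% ± 1.3. JUN made up 73.7% ± 3.0 of the JUN family, from 68.1% to 80.2%, with JUND at 13.3% ± 1.9 and JUNB at 13.0% ± 1.6. Such shares do not depend on the scaling between libraries. JUND made up 11.8% ± 1.3 of its family with ethanol and 15.5% ± 1.4 with A41 (n = 3 each), and the A41 libraries (14.5% to 17.1%) lay above those with ethanol (11.0% to 13.2%). With bexarotene, at 14.1% ± 0.77, the lowest library (13.3%) was just above the highest with ethanol. With A34, A80 and A98 the JUND share overlapped that with ethanol, at 13.1% ± 2.8, 12.2% ± 2.1 and 13.0% ± 1.2. FOSL2 reached its highest share with A80, at 15.6% ± 1.9 against 11.1% ± 0.84 with ethanol, and these libraries did not overlap.

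**Figure D2:**
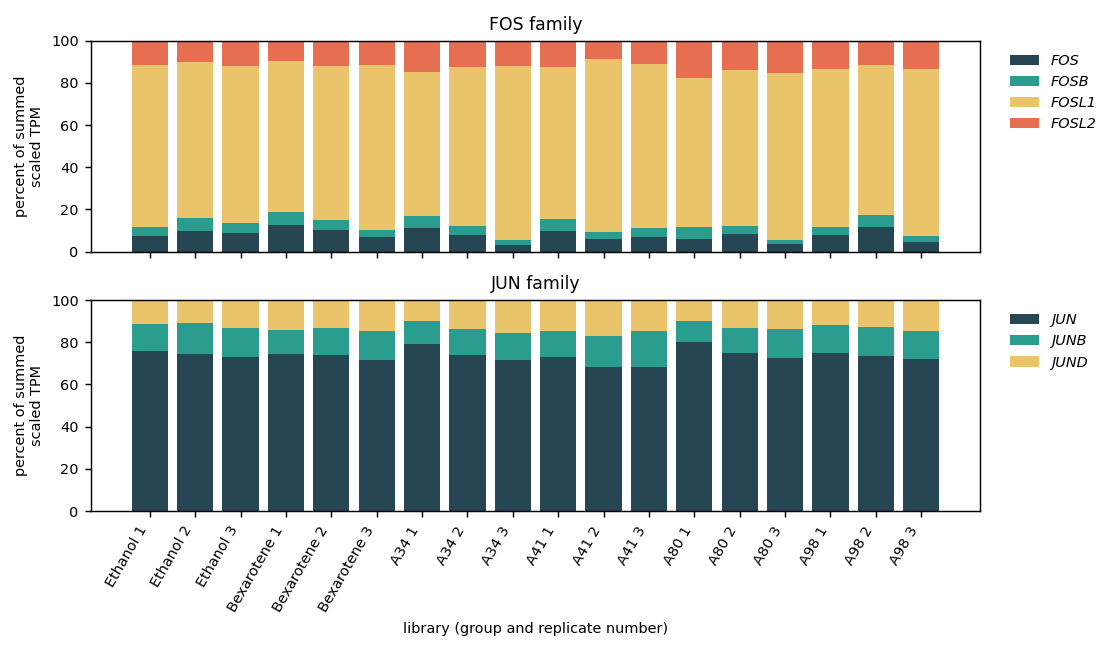
Percent of the summed scaled TPM (vertical axes) of the FOS family (upper) and JUN family (lower) held by each gene, as stacked bars per library (horizontal axis). FOSL1 holds 68.3% to 82.6% of the upper bars and JUN 68.1% to 80.2% of the lower.

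JUND, the JUN protein that is expressed most evenly across tissues and is known to restrain growth, was the only member called against ethanol, with A41 only. It stood at 26.8, 25.6 and 28.8 scaled TPM with ethanol. With bexarotene it was at 41.8, 34.4 and 32.9, with A34 at 32.1, 37.9 and 34.5, and with A41 at 38.2, 46.1 and 33.5. With A80 it was at 30.9, 34.4 and 34.9, and with A98 at 32.3, 33.8 and 33.5. Every one of the 15 rexinoid libraries thus lay above every ethanol library, as was the case for 0.816% of all genes tested. The lowest rexinoid value, 30.9, was close to the highest ethanol value, 28.8. On the log2(scaled TPM + 1) scale, which is used for all fold changes here, JUND rose by 0.51 with A41 (SE 0.11, 95% interval 0.28 to 0.74, limma adjusted p = 0.042). Its differences with the other rexinoids were 0.41 (bexarotene, adjusted p = 0.84), 0.35 (A34, 0.27), 0.29 (A80, 0.44) and 0.29 (A98, 0.72), none past the threshold of 0.05. For the mean of the 5 rexinoids it was 0.37 (SE 0.08, adjusted p = 0.12).

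The JUND call with A41 was narrow. It was past the threshold under 5 of 18 alternatives, with adjusted p from 0.021 to 0.85 and log2 fold changes from 0.18 to 0.62, all positive. The scaling factors first used came from 21776 genes above 0 in every library and gave JUND an adjusted p of 0.055; those used here come from the 16349 of them that pass the low-value filter, following an earlier processing of these data, and the change was made with the first result known. A41 replicate 2, the library with 56.1% ribosomal RNA, held the highest JUND value, and without it the fold change was 0.39 (adjusted p = 0.18). Without all 3 libraries rich in ribosomal RNA it was 0.35 (adjusted p = 0.24). The adjusted p was also above 0.05 without A41 replicate 1 (0.089), ethanol replicate 1 (0.14), 2 (0.18) or 3 (0.085). As deposited, JUND was at 32.3, 19.6 and 33.3 TPM with ethanol and at 42.4, 19.2 and 37.8 TPM with A41, so that the groups overlapped in unscaled values.

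Among all 9 members, limma called 1 with A41, where 0.755% of all genes tested were called. With the other rexinoids 0 members were called: with bexarotene (background 0.0547%), A34 (0.0821%), A80 (0.0438%) and A98 (0.0328%). For the mean of the 5 rexinoids 0 were called (background 0.203%). An unadjusted p under 0.05 was found for 3 members with A41, where 10.4% of all genes tested had one, and for 2 with A80 (9.41% of all genes). It was found for 1 member each with bexarotene (5.75%), A34 (10.7%) and A98 (6.63%), JUND each time, and for 2 for the mean of the 5 (10.3%). A count of 1 in 9 is near these shares. The median log2 fold change of the 9 was 0.22 with A41 and between -0.04 and 0.11 with the others, beside -0.01 and 0 for all genes tested. The 1 call among 9 rests on a single gene. Since the 5 comparisons share the ethanol libraries, their values are not independent of each other.

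**Figure D3:**
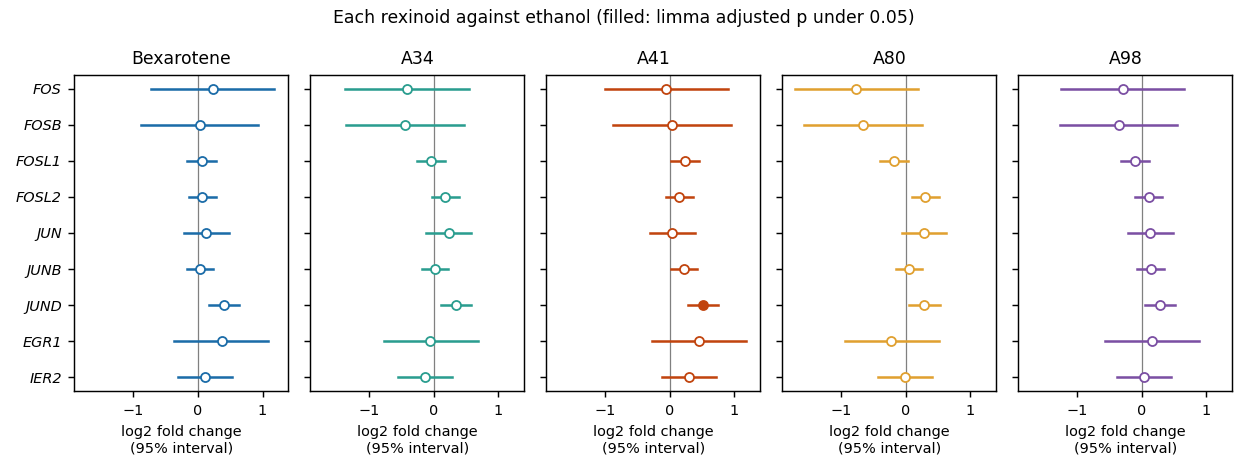
Log2 fold change of each member (vertical axis) for each rexinoid against ethanol (horizontal axes, log2(scaled TPM + 1) scale); points are estimates, lines 95% intervals and the filled point a call. JUND with A41, at 0.51, is the filled point, and the intervals of FOS, FOSB and EGR1 are the widest.

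The FOS-family genes of high and stable level differed little from ethanol. FOSL1, the most abundant, was at 294, 421 and 345 scaled TPM with A41 and at 247, 268 and 270 with A80. The 421 was A41 replicate 2, again the library richest in ribosomal RNA, and the A80 libraries lay below all 3 ethanol libraries. Against ethanol FOSL1 differed by 0.24 with A41 (adjusted p = 0.43) and by -0.18 with A80 (adjusted p = 0.63). With A98 it was at 271, 280 and 277, below all ethanol libraries too, and differed by -0.10 (adjusted p = 0.91). Of all genes tested, 7.78% lay below ethanol in this way with A80 and 8.18% with A98. FOSL2 was at 61.4, 50.3 and 51.7 with A80 against 44.1, 41.8 and 45.4 with ethanol. The A80 libraries lay above those with ethanol, and the difference of 0.30 (95% interval 0.10 to 0.51) had an adjusted p of 0.38. FOSL2 also lay above all ethanol libraries with A41 (0.15, adjusted p = 0.62) and A98 (0.11, adjusted p = 0.89). So did 8.6% of all genes tested with A80, 8.27% with A41 and 8.49% with A98. A noncoding gene on the same strand and another on the opposite strand overlap FOSL2, at 4.16 and 0.352 scaled TPM against 48.4 for FOSL2.

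JUN, the main JUN-family gene, overlapped ethanol with every rexinoid. Its differences ran from 0.04 with A41 to 0.29 with A80 (SE 0.16, 95% interval -0.06 to 0.63, adjusted p = 0.63). This fit has no term for the replicate number, with which JUN also differed, so its interval includes that spread. With a block for the replicate number of the titles, the JUN differences were the same. Their adjusted p ran from 0.16 with A80 and 0.23 with A34 to 0.90 with A41, none past the threshold. With the file-number block the A80 difference was 0.29 (SE 0.09, adjusted p = 0.26). JUNB, which is known to oppose JUN at some promoters, was at 32.8, 39.7 and 38.2 with A41 against 30.9, 33.6 and 29.9 with ethanol. The lowest A41 value was under the highest ethanol value, and the difference of 0.22 had an adjusted p of 0.43. JUNB lies wholly within HOOK2, which is on the other strand and averaged 6.74 scaled TPM. Strand use in the authors' quantification was not given in the sources used here. The division of reads between such overlapping genes is uncertain.

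FOS and FOSB, the 2 fast FOS-family genes, were the most variable members. FOS was at 29.0, 40.6 and 33.6 scaled TPM with ethanol, at 28.3, 46.3 and 15.9 with A98 and at 20.7, 30.3 and 12.1 with A80. Over the 18 libraries its highest value was 5.1 times its lowest, and that of FOSB 4.89 times, against 1.39 to 1.80 times for the 6 members other than these and EGR1 (3.28 times). The within-group coefficient of variation had a median over the groups of 42.3% for FOS and 37.5% for FOSB, beside 6.16% for FOSL1 and 7.49% for JUND. Against ethanol, FOS with A80 differed by -0.76 (95% interval -1.71 to 0.19, adjusted p = 0.64) and FOSB by -0.65 (95% interval -1.56 to 0.25, adjusted p = 0.67). These intervals hold changes in both directions. They come from the fit without a replicate term, so they include the spread between replicate numbers. With the file-number block the differences were -0.62 for FOS (SE 0.34, limma adjusted p = 0.63) and -0.50 for FOSB (SE 0.32, adjusted p = 0.70). FOSB lies wholly within ERCC1, a DNA repair gene of the other strand at 87.9 scaled TPM on average, against 17.6 for FOSB.

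EGR1, a zinc finger factor that serum switches on, was at 19.7, 24.6 and 20.1 scaled TPM with ethanol. It was at 27.8, 36.9 and 25.7 with A41, 31.1, 37.5 and 18.5 with bexarotene, and 30.5, 24.9 and 11.4 with A34. The A41 libraries lay above those with ethanol, as did those of 8.27% of all genes tested, and the others overlapped them. With A41 the difference was 0.46 (95% interval -0.27 to 1.18, adjusted p = 0.67). This interval also includes the spread between replicate numbers. With the file-number block the EGR1 difference was 0.45 (SE 0.22, limma adjusted p = 0.54). IER2, a small nuclear protein of the immediate early response, was at 43.6, 42.5 and 40.8 with A41 against 32.2, 41.5 and 29.8 with ethanol. Its groups overlapped by a single ethanol library, and the difference of 0.30 had an adjusted p of 0.62.

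No member was called between 2 rexinoids in the limma fit. Against bexarotene 0 of 9 were called for any coded compound. In the order A34, A41, A80, A98, the background was 0%, 0.115%, 0% and 0.00547% of all genes. An unadjusted p under 0.05 was found for 0, 0, 3 and 0 members, and for 5.2%, 6.23%, 6.06% and 6.86% of all genes. Among the coded compounds 0 of 9 were called for A34 against A41 (background 0.0712%), A34 against A80 (0%), A34 against A98 (0.00547%), A41 against A80 (0.126%), A41 against A98 (0.131%) and A80 against A98 (0.00547%). Unadjusted p-values under 0.05 were found for 2, 0, 0, 1, 1 and 0 members in that order, and for 7.88%, 3.55%, 4.51%, 7.95%, 7.15% and 4.04% of all genes. A test of any difference among the 5 rexinoids called 0 of 9 (background 0.0657%), and its smallest unadjusted p was 0.01, for FOSL1 (adjusted p = 0.59).

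FOSL1 had the smallest unadjusted p of the 9 members between 2 rexinoids (limma, 0.0011), for A41 against A80. The A41 libraries lay above all A80 libraries, with a difference of 0.42 (95% interval 0.20 to 0.64, adjusted p = 0.19), and above all A98 libraries, with a difference of 0.34 (0.12 to 0.56, adjusted p = 0.41). Of all genes tested, 5.16% lay above in this way in the first comparison and 6.11% in the other. With limma's library weights the first of these passed the threshold at 0.36 (adjusted p = 0.013), and without A41 replicate 1 at 0.54 (adjusted p = 0.036). The others of the 18 alternatives did not pass, with adjusted p up to 0.98, and with TPM as deposited the difference was -0.01. EGR1 also lay higher in all A41 than in all A80 libraries, by 0.68 (95% interval -0.05 to 1.4, adjusted p = 0.66). That interval includes the spread between replicate numbers. With the file-number block the EGR1 difference was 0.68 with an SE of 0.21 (limma adjusted p = 0.26). IER2 lay lower in all A34 than in all A41 libraries, with a difference of -0.43 (-0.85 to -0.01, adjusted p = 0.63), as did 5.3% of all genes. For JUND the differences between rexinoids ran up to 0.22, for A41 against A98 (95% interval -0.01 to 0.46, adjusted p = 0.69) and A41 against A80 (-0.02 to 0.45, 0.66), and A41 against bexarotene differed by 0.10 (-0.13 to 0.34). For FOS, A80 against bexarotene gave -0.99 (SE 0.45, adjusted p = 0.80), so compounds may differ by this much in these data without a call. With the file-number block the FOS difference was again -0.99 (SE 0.31, limma adjusted p = 0.57).

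JUN and EGR1 differed with the replicate number in the titles. JUN was highest in replicate 1 and lowest in replicate 3 in 6 of 6 groups, and averaged 218 scaled TPM over the replicate 1 libraries, 191 over replicate 2 and 164 over replicate 3. With the number as a term beside the groups, JUN fell by 0.40 on the log2 scale from replicate 1 to replicate 3 libraries (SE 0.06, limma F test, adjusted p = 0.015). EGR1 fell by 0.55 (SE 0.14, adjusted p = 0.045) and was lowest in replicate 3 in 5 of 6 groups, the exception being ethanol. FOS, at -0.78 (SE 0.22, adjusted p = 0.14), and FOSB, at -0.77 (SE 0.22, adjusted p = 0.18), were lowest in replicate 3 in 4 of 6 groups each. FOSL2, at -0.14, had an adjusted p of 0.48. JUND (-0.02, adjusted p = 0.88), JUNB (-0.05, 0.66), FOSL1 (0.05, 0.71) and IER2 (0.13, 0.67) were near 0. In all, 2 of 9 members were called, where 1.01% of all genes tested were.

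The labels do not say that a shared number marks a shared culture, day or batch, and the file names carry other numbers. The numberings overlap, since replicate 3 of the titles is file number 4 in every group. The file numbers are therefore no separate check of the lower values in replicate 3 libraries. With the file numbers JUN had an adjusted p of 0.043 and EGR1 of 0.11. Under TPM as deposited both had 0.84, although mean JUN was again lower in replicate 3 libraries, at 185 TPM against 221. The adjusted p of JUN rose above 0.05 without bexarotene replicate 3 (0.052), A34 replicate 1 (0.055) or A80 replicate 1 (0.062). That of EGR1 rose above 0.05 in 16 of 18 omissions of 1 library, up to 0.13, the exceptions being ethanol replicates 1 and 3.

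**Figure D4:**
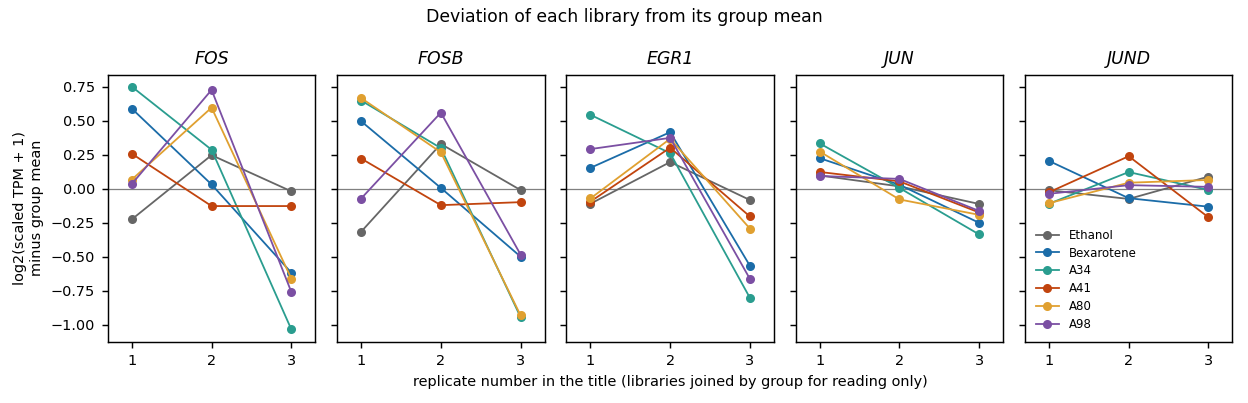
Log2(scaled TPM + 1) of each library minus its group mean (vertical axis) against the replicate number of the title (horizontal axis) for 5 members, with the libraries of a group joined by lines. JUN is highest in replicate 1 and lowest in replicate 3 in 6 of 6 groups, while JUND shows no such order.

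Genes known for other responses moved with the same number, and their part in the JUN and EGR1 result was not tested. Of 17 hypoxia and glycolysis genes 9 were called lower in replicate 3 libraries, with a median of -0.57. Over all genes tested the median was 0, and 1.01% were called in either direction. Carbonic anhydrase CA9 averaged 136 scaled TPM in replicate 1 and 62.2 in replicate 3 libraries (-1.10, adjusted p = 0.0033), and the glucose transporter SLC2A1 93.5 and 44.7 (-0.96, adjusted p = 0.012). Of 9 heat shock genes 0 were called and 7 had an unadjusted p under 0.05 (11.6% of all genes tested), with all 9 differences positive and a median of 0.19. Against ethanol the hypoxia list had positive differences for 16 of 17 genes with bexarotene and 17 of 17 with the other 4 compounds, with medians from 0.23 with A41 to 0.78 with A80, and 0 called. At an unadjusted p under 0.05 it held 16 of 17 genes with A34 (10.7% of all genes tested) and 16 with A80 (9.41%), 4 with A98 (6.63%), and 2 each with bexarotene (5.75%) and A41 (10.4%).

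Of the AP-1 target genes, 8 of 16 tested were called lower in replicate 3 libraries, with a median of -0.31. Of all genes tested 1.01% were called in either direction, with a median of 0, which holds for each list below. The lists were chosen with earlier results of these data known, and a link to the JUN and EGR1 result was not tested. Interleukin 6 (IL6) averaged 51.6 and 19.1 scaled TPM (-1.27, adjusted p = 0.013), the matrix protease MMP3 267 and 180 (-0.55, 0.014) and VEGFA, which is also in the hypoxia list, 576 and 403 (-0.48, 0.015), in replicate 1 and 3 libraries. Of 11 EGR1 targets 2 were called lower, tissue factor F3 (-1.76, adjusted p = 0.012) and fibronectin FN1 (-0.65, 0.022). Among 14 leucine zipper genes that pair with AP-1 proteins, MAFF (-0.54, 0.012) and ATF3 (-0.52, 0.026) were called lower. Of 31 other immediate early genes, BHLHE40 (-0.48, 0.014) and NFIL3 (-0.68, 0.034) were, and of 22 upstream regulators the kinase MAP2K1 (-0.39, 0.032).

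With the rexinoids few genes of these lists were called. Of all genes tested, 0.755% were called with A41 and 0.203% for the mean of the 5 rexinoids. The leucine zipper gene MAF, whose protein can pair with FOS and JUN, rose with A41 from 6.59 to 12.1 scaled TPM (0.78, SE 0.13, adjusted p = 0.0058) and over the 5 rexinoids together to 10.3 (0.56, SE 0.10, 0.023). It was the 1 of 14 AP-1 partners called. RPS6KA1, a kinase downstream of ERK that acts on immediate early proteins, rose with A41 from 9.68 to 15.3 (0.61, SE 0.10, 0.009) and was the 1 of 22 upstream regulators called. Of 16 AP-1 targets 2 were called with A41, in opposite directions. TIMP1, an inhibitor of matrix proteases, rose from 544 to 1040 (0.92, adjusted p = 0.027), and the hyaluronan receptor CD44 fell from 1160 to 890 (-0.38, adjusted p = 0.027).

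In the other 4 comparisons with ethanol 0 genes of the partner, upstream, AP-1 target, EGR1 target and other immediate early lists were called. BHLHE40, a transcriptional repressor, came closest among the 31 other immediate early genes, at 186 scaled TPM with A41 against 103 with ethanol (0.84, adjusted p = 0.073). In that list 0 were called with A41 and 6 of 31 had an unadjusted p under 0.05 (10.4% of all genes tested), with 4 for bexarotene (5.75%), 10 for A34 (10.7%), 10 for A80 (9.41%) and 1 for A98 (6.63%). EGR2, a relative of EGR1, was at 11.0 with A34 against 4.43 (0.99, adjusted p = 0.34). Of 11 EGR1 targets, 4 had an unadjusted p under 0.05 with A41 (10.4% of all genes tested), 6 with A34 (10.7%) and 4 with A80 (9.41%). With bexarotene (5.75%) and A98 (6.63%) 0 had one, and 0 of the 11 were called. The largest differences among them were those of F3, at 170 with A34 and 33.4 with ethanol (1.94, adjusted p = 0.34), and of ICAM1, at 26.6 and 8.47 (1.37, adjusted p = 0.23).

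FOS, FOSB and EGR1 varied together over the 18 libraries. Of 36 pairs of members, 5 were past an adjusted p of 0.05 (permutation test with 100000 resamples, two-sided, Benjamini-Hochberg over the 36). FOS and FOSB had Pearson's r = 0.93 and Spearman's rho = 0.87 (permutation p = 1e-05 for each, the smallest that these resamples can give, adjusted p = 0.00036). For FOS and EGR1 r was 0.84 (p = 3e-05, adjusted 0.00054) and rho 0.78 (permutation p = 0.00032, adjusted 0.0058). For FOSB and EGR1 r was 0.76 (p = 0.00035, adjusted 0.004) and rho 0.65 (permutation p = 0.0044, adjusted 0.047). Without the 2 libraries farthest from the median of the first gene, r was 0.85, 0.73 and 0.56 in that order. With group means subtracted it was 0.92, 0.87 and 0.74, and with the 3 libraries of high ribosomal RNA left out 0.92, 0.91 and 0.78. The permutation swapped all 18 libraries freely, across groups and replicate numbers. FOS, FOSB and EGR1 were each lower on average in replicate 3 libraries, and the part of this in r and its p was not tested.

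The other 2 pairs past the threshold were FOSL2 with JUN and JUNB with EGR1. FOSL2 and JUN had r = 0.75 (permutation p = 0.00045, adjusted 0.004) and rho = 0.61 (permutation p = 0.008, adjusted 0.058), and r fell to 0.43 without the 2 libraries farthest in FOSL2. JUNB and EGR1 had r = 0.67 (permutation p = 0.0025, adjusted 0.018) and rho = 0.64 (permutation p = 0.0052, adjusted 0.047), with r = 0.48 without the 2 farthest in JUNB. JUN had a higher r with FOS, FOSB and EGR1 within groups than over all libraries. Its r with FOSB was 0.41 over the 18 libraries and 0.81 with group means subtracted, with FOS 0.35 and 0.74, and with EGR1 0.37 and 0.70. Subtracting group means leaves in the lower values of these genes in replicate 3 libraries, and the part of those in r was not tested. FOSL1, the most abundant FOS gene, had r = 0.27 with FOS (permutation test, adjusted p = 0.45) and 0.24 with FOSB (0.49) over the 18 libraries. With group means subtracted r was -0.07 and -0.14. Neither pair was past the threshold, which does not show that a correlation is absent. Under TPM as deposited the pair FOSL1 and FOSL2 turned from r = -0.46 to 0.84, so correlations of the stable members depend on how the unequal ribosomal RNA is handled. FOS and FOSB, in contrast, had r = 0.93 on either scale.

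**Figure D5:**
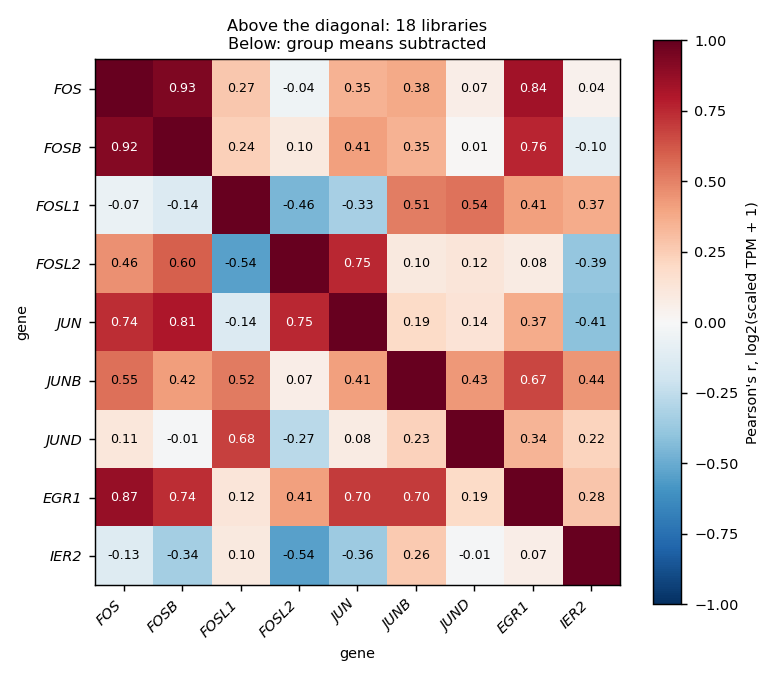
Pearson's r of log2(scaled TPM + 1) between members (rows and columns, colour and number), over 18 libraries above the diagonal and with group means subtracted below it. FOS, FOSB and EGR1 show r of 0.76 to 0.93 above the diagonal, and JUN joins them below it with 0.70 to 0.81.

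The genes most like each member in level over the 18 libraries, outside the 9, are given as a description with no test. They were PNISR for FOS (Pearson's r = 0.78), AK3P3 for FOSB (0.80), SF3B4 for FOSL1 (0.92), FBXO42 for FOSL2 (0.90) and ZNF503 for JUN (0.94). For JUND they were PNPLA2, MYBL2 and FDPS (0.85 each), for EGR1 TCIM (0.81) and for IER2 GCNT1 (0.82). JUNB was most like AC083862.1, a gene at 1.33 scaled TPM (0.79), and DHX38 (0.77). FOS and FOSB were more like each other (0.93) than like any other gene tested, and the same libraries and scaling factors enter every such value.

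In genome terms the 9 members lie on 6 chromosomes, and 4 of them on chromosome 19. FOSB is at chr19:45467995-45475179, JUNB at chr19:12791486-12793315, JUND at chr19:18279694-18281622 and IER2 at chr19:13150411-13154911, in the tables' GRCh38 coordinates. FOS is at chr14:75278826-75282230, FOSL1 at chr11:65892049-65900573, FOSL2 at chr2:28392448-28417317, JUN at chr1:58776845-58784048 and EGR1 at chr5:138465479-138469303. JUND is on the minus strand, as are FOSL1 and JUN, and all 9 are annotated as protein coding.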

How the data were processed

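Total RNA was ribosome-depleted and sequenced in pairs, per the labels' protocols. Gene abundances from StringTie came as 1 table a library. TPM, FPKM and coverage were computed by the authors, per the file headers. STAR, StringTie and GRCh38 are named in the submitters' processing notes, without versions. Median-of-ratios factors from 16349 genes (0.417 to 1.20) scaled TPM. FPKM values and the coverage signal in the deposited tables were used only for depth, which limits low genes most. Strand use was not given in the sources used here.

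Log2(scaled TPM + 1) of 18269 genes went into limma 3.58.1 (R 4.3.3), with 18 libraries and 6 groups in 1 model, moderated with a trend and tested on simulated data. P-values are two-sided, adjusted by Benjamini-Hochberg over all genes tested, with 0.05 as threshold. The members and gene lists were chosen with earlier results of these data known, so their counts are descriptions. The scaling gene set was narrowed after a first fit on 21776 genes had been seen, to follow that earlier processing; this moved the JUND call with A41 across the threshold, from 0.055 to 0.042. Named genes were the 9 members and, per list and comparison, up to 4 of smallest adjusted p past 0.05, otherwise the 2 of largest change. A gene of the AP-1 target list that this rule names is not reported here by name, but is counted in its list. The alternatives were other scalings, pseudocounts, filters, weights, replicate blocks and omitted libraries. The main fit has no replicate term. The correlation of deviations between same-numbered libraries had a median of 0.03, beside -0.01 for other pairs. All 3 pairs were over 0.1 for A41 with ethanol only (0.12 to 0.31). Such a correlation does not show that the number is without effect, since 1.01% of all genes tested were called for it.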

Additional observations from a re-analysis of the deposited data

How the results depend on the processing

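The number of members called with A41 against ethanol, 1 (JUND), became 0 with TPM as deposited, TPM without ribosomal RNA genes, a filter of TPM above 0 in 3 libraries, no trend, the file-number block, only the 2 groups compared, the libraries rich in ribosomal RNA left out, and scaling factors from all genes above 0 in every library, the last being added after the data were seen. Leaving out 1 library gave 0 to 1. JUND kept a positive difference in all of these. With limma's library weights 1 member was called for A41 against A80 (FOSL1) and 1 for the mean of the 5 rexinoids (JUND, 0.31, adjusted p = 0.026), in place of 0; leaving out 1 library gave 0 to 1 for A41 against A80. For the replicate number, 2 members called became 1 with the file numbers and with no trend, and 0 with TPM as deposited, TPM without ribosomal RNA genes, the wider filter and the libraries rich in ribosomal RNA left out; leaving out 1 library gave 0 to 2. Of 36 pairs of members, 5 past the threshold became 20 with TPM as deposited and 10 with group means subtracted. The permutation over 18 libraries made no allowance for the 6 subtracted means, so the 10 may be too high. With the replicate block from titles, JUND with A41 stayed at 0.51 (adjusted p = 0.048), and the block changed no count of members called; over all genes it raised the calls of A34 against ethanol from 15 to 166 and of A80 from 8 to 117. The file-number block gave JUND 0.48 (adjusted p = 0.15). Against ethanol, unscaled TPM shifted the median over all genes by -0.27 (A41) to 0.15 (A98). Of 3195 single-gene values recomputed, 3150 kept their side of the threshold and 0 were called in the opposite direction. Nearly all of them were uncalled in the main fit, so keeping their side says little of stability. The counts that held calls changed in 13 of 18 alternatives for A41 against ethanol and in 22 of 27 for the replicate number. Differences near 0 could change sign, as that of FOSB with bexarotene (0.03) did in 6 of 18.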
